A study of Mus musculus with 14 samples.

Results

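The genes described here are 10 genes that mark macrophages resident in the healthy mouse heart: Lyve1, Timd4, Folr2, Cd163, Mrc1, Cbr2, F13a1, Vsig4, Stab1 and Pf4. They were found by their symbol in the table of raw counts, where each had 1 of the 54532 gene IDs. All 10 passed the filter on low counts, which left 15876 genes to test. The study asked about the chemokine gene Ccl24 in cardiac fibrosis, by sequencing polyadenylated RNA of heart ventricles from mice 1 week after surgery. Surgery was either transverse aortic constriction (TAC), a narrowing of the aorta that raises the load on the left ventricle, or a sham operation. The 4 groups were wild type sham (2 libraries), wild type TAC (6), knockout sham (2) and knockout TAC (4), where knockout is the genotype labelled CCL24 KO. The labels give no strain, sex or age, and no promoter or Cre for the knockout.

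Hearts hold macrophages that settle before birth and renew themselves in place, and others that arrive later from blood monocytes. The resident ones sit along vessels and between muscle cells, take up dead cells and debris, and carry receptors for sugars, haemoglobin, folate and hyaluronan. Several of the 10 genes are also used by other cells: Lyve1 by lymphatic endothelium, Stab1 by some endothelial cells, Pf4 by platelets and F13a1 by platelets and monocytes. In RNA of whole ventricle, fewer cells of a type and less RNA per cell cannot be told apart.

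Total counts were 17072262 to 33123052 per library, and levels are CPM, counts set relative to the library's total, scaled with TMM factors. Genes of heart muscle cells were present at a summed 32450 to 50660 CPM in all 14 libraries. Their sum was 43360 to 44890 CPM in wild type sham, 32450 to 41530 in wild type TAC, 46940 to 50660 in knockout sham and 36910 to 44550 in knockout TAC. Ccl24 had 61 and 72 counts in wild type sham, 56 to 105 in 5 of the wild type TAC libraries and 3 to 8 in the knockout libraries. Wild type TAC replicate 1 had 3 counts of Ccl24 (exact 95% Poisson interval 0.619 to 8.77, for counting error only), which goes against its label. It is called the library labelled WT1 here, and results are given with and without it.

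Cd163, Mrc1 and F13a1 passed the test between knockout and wild type after TAC, so the stretch before the start of each is printed to show what the 3 share or lack there. The sequences are from RefSeq on GRCm38.p6, in the direction of the gene, from 250 to 31 bases before the annotated start. The Cd163 stretch is at chr6:124304401-124304620 on the plus strand, that of Mrc1 at chr2:14229164-14229383 on the plus strand and that of F13a1 at chr13:37050275-37050494 on the minus strand. Capitals mark AGGAAG, a core of the sites bound by PU.1, the ETS factor that macrophages need, or its reverse complement CTTCCT.
Cd163: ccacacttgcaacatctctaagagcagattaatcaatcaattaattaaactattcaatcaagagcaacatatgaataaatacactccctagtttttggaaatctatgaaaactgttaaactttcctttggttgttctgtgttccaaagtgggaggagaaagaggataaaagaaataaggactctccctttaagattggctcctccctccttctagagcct
Mrc1: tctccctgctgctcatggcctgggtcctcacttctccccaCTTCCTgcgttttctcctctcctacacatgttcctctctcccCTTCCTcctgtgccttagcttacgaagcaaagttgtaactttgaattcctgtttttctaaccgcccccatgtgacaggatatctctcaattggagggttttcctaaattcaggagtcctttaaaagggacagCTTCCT
F13a1: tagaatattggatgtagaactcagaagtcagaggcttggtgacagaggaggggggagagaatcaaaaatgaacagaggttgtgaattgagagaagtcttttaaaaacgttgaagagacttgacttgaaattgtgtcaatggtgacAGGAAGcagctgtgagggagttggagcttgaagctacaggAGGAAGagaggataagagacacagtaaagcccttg
The letters occurred 3 times in the Mrc1 stretch, all on the opposite strand, 2 times in that of F13a1 and 0 times in that of Cd163. Of the 9 genes with a RefSeq entry, 5 held AGGAAG on either strand, against 26.1% of 32851 mouse promoters cut to the same 220 bases. TGCTGA, a part of the site of MAF factors, was in 3 of 9 and in 14.4% of all. The AP-1 site TGANTCA was in 0 of 9 against 6.12%, and TATAAA in 0 of 9 against 9.95%. For a gene with several RefSeq starts, the start nearest that of GENCODE was taken, while the shares of all promoters count every entry. A second, more distant start of Folr2 did hold the AP-1 letters. These are matches of letters in this window and no evidence of binding.

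Cd163, a scavenger receptor for haemoglobin, was higher after TAC in wild type and lower after TAC in knockout. With all libraries in edgeR, the difference between these 2 responses did not pass. The Cd163 gene spans 124304656 to 124330527 of chromosome 6 (GRCm38, plus strand). Its level was 11.1 and 11.5 CPM in wild type sham, and in wild type TAC 10.8 in the library labelled WT1 and 16.3 to 20.8 in the other 5 (median of the 6, 18.3). In knockout hearts it was 19.0 and 15.4 CPM after sham and 9.84, 10.5, 10.2 and 9.77 after TAC. All 4 knockout TAC libraries thus lay below every other library, the library labelled WT1 lay between them and the wild type sham libraries, and of the knockout sham libraries 1 lay within the range of the other wild type TAC libraries and 1 just below it.

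Wild type hearts had a mean of 11.3 ± 0.302 CPM of Cd163 after sham (SD, n = 2) and 17.5 ± 3.70 after TAC (n = 6). Knockout hearts had 17.2 ± 2.57 after sham (n = 2) and 10.1 ± 0.338 after TAC (n = 4). In edgeR's quasi-likelihood test with Benjamini-Hochberg adjustment, Cd163 rose with TAC in wild type by 0.63 on the log2 scale (SE 0.19, adjusted p = 0.0408), and by 0.73 without the library labelled WT1 (adjusted p = 0.0037). In knockout it fell by 0.77 on the log2 scale (SE 0.19, adjusted p = 0.0327). Knockout TAC hearts had 0.576 times the wild type TAC level, a log2 difference of -0.79 (SE 0.15, adjusted p = 0.0061), which was -0.90 without the library labelled WT1 (adjusted p = 4.77e-05). After sham the knockout was higher by 0.60 (SE 0.22), which did not pass (adjusted p = 0.318). With all libraries the genotype by surgery interaction of Cd163, the difference between the 2 TAC responses, was -1.40 (SE 0.27, unadjusted p = 7.98e-05, adjusted p = 0.348). Without the library labelled WT1 it was -1.50 (SE 0.17, adjusted p = 0.00204), and DESeq2 on all libraries gave an adjusted p of 0.00555.

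The difference in Cd163 between the TAC groups passed whichever of the 14 libraries was left out. The rise in wild type rested on more libraries: it was lost without wild type sham replicate 1 or 2 (adjusted p = 0.254 and 0.247), without any 1 of wild type TAC replicates 2, 3, 4, 6 and 7 (0.0517 to 0.0769), and without knockout TAC replicate 2, 4 or 5 (0.0507 to 0.0594). The fall in knockout was lost without knockout sham replicate 1 or 2 (adjusted p = 0.465 and 0.0734), and without any 1 of the 4 knockout TAC libraries (0.0514 to 0.0807). With all libraries, limma voom lost both the wild type rise (adjusted p = 0.0720) and the knockout fall (0.0699), and a fit of only the compared groups lost the rise (0.104).

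**Figure D1:**
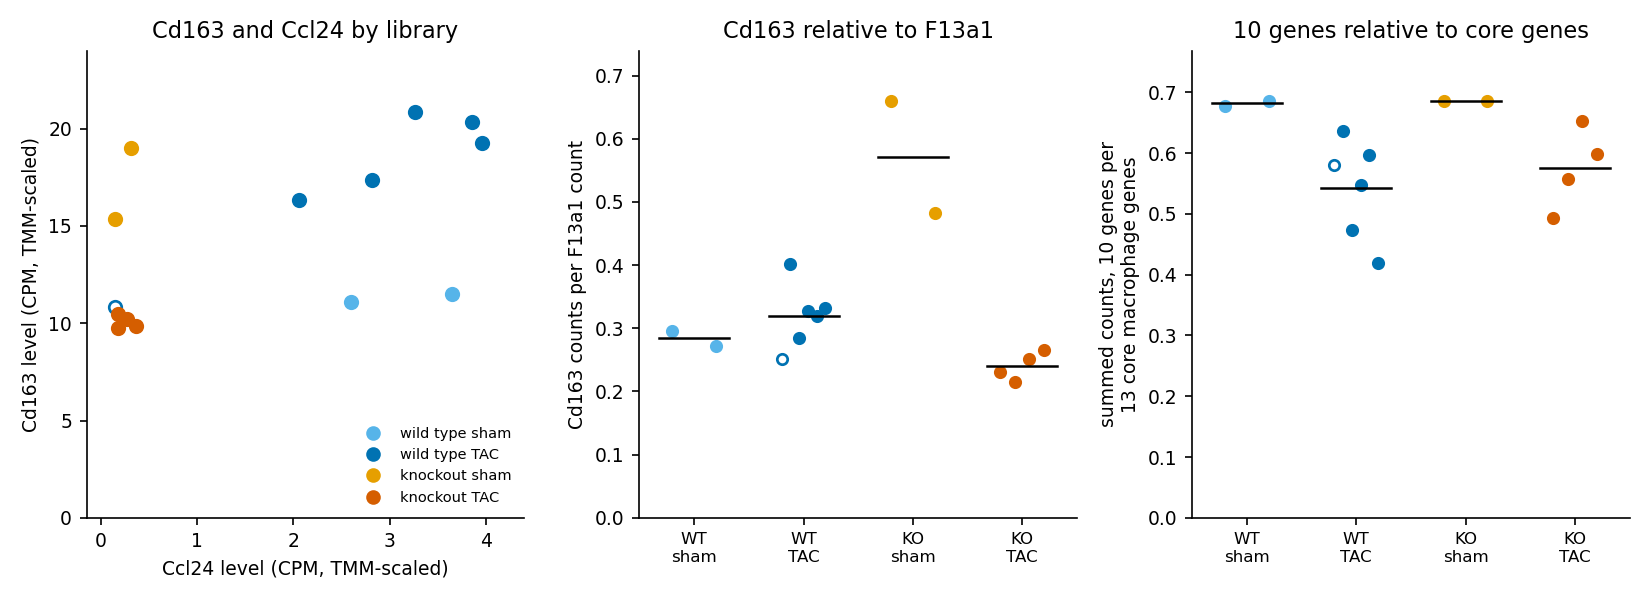
Left, the Cd163 level against the Ccl24 level, both in CPM, for the 14 libraries; middle, Cd163 counts per F13a1 count; right, summed counts of the 10 genes per count of the 13 core macrophage genes. Points are libraries, lines are group means and the open circle is the library labelled WT1, which sits beside the 4 knockout TAC libraries (9.77 to 10.5 CPM of Cd163) in the left panel.

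Cd163 was also set against other macrophage genes in the same library, as the plot of Cd163 by library shows. There were 0.272 and 0.296 Cd163 counts per F13a1 count in wild type sham, 0.252 in the library labelled WT1 and 0.285 to 0.401 in the other wild type TAC libraries. The ratio was 0.660 and 0.482 in knockout sham and 0.215 to 0.266 in knockout TAC. Per Mrc1 count the ratio was 0.307 and 0.322 in wild type sham, 0.243 to 0.414 in wild type TAC, 0.517 and 0.449 in knockout sham and 0.232 to 0.288 in knockout TAC. Per count of the core macrophage genes it was 0.0297 and 0.0302, 0.0217 to 0.0367, 0.0529 and 0.0440, and 0.0192 to 0.0261 in the same order. Knockout sham was thus the highest of the groups in all 3 ratios. In all 4 knockout TAC libraries the 3 ratios lay below those of wild type sham. Wild type TAC overlapped wild type sham in all 3, and it overlapped knockout TAC in each of them, per F13a1 count only through the library labelled WT1. The ratios are descriptions of single libraries and carry no test.

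Mrc1, the mannose receptor CD206 that takes up glycoproteins, rose with TAC in wild type and was lower in knockout than in wild type after TAC. Its level was 36.1 and 35.8 CPM in wild type sham, and in wild type TAC 40.5 in the library labelled WT1 and 49.1 to 71.4 in the other 5 (median of the 6, 60.5). In knockout it was 36.8 and 34.2 CPM after sham and 42.4, 39.2, 36.0 and 34.0 after TAC. Every wild type TAC library lay above both wild type sham libraries, and the library labelled WT1 lay inside the range of knockout TAC.

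The log2 change of Mrc1 with TAC was 0.68 in wild type (SE 0.16, adjusted p = 0.0196) and 0.10 in knockout (SE 0.17, adjusted p = 0.800). Knockout TAC hearts were lower than wild type TAC hearts by 0.60 on the log2 scale (-0.60, SE 0.13, adjusted p = 0.0127), or 0.659 times the level. Without the library labelled WT1 the wild type rise was 0.76 (adjusted p = 0.0034) and the knockout difference -0.68 (adjusted p = 0.000414). The interaction of -0.58 (SE 0.23) did not pass (adjusted p = 0.997), so a different response of Mrc1 in the 2 genotypes was not shown. The wild type rise was lost without wild type sham replicate 1 or 2 (adjusted p = 0.169 and 0.208) and the knockout difference without knockout TAC replicate 5 (0.0582). A fit of only the compared groups also lost the rise (0.0641). Mrc1 spans 14229392 to 14332057 of chromosome 2 (plus strand), and the microRNA gene Mir511 lies within it on the same strand.

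Stab1, a large scavenger receptor that clears modified lipoproteins and matrix fragments, had the highest CPM of the 10 genes in all groups. Its level was 102 and 107 CPM in wild type sham, 112 in the library labelled WT1, 117 to 139 in the other wild type TAC libraries (median of the 6, 132), 109 and 106 in knockout sham and 95.01, 129, 105 and 122 in knockout TAC. All 6 wild type TAC libraries lay above wild type sham, while knockout TAC overlapped every group. The wild type change was 0.30 on the log2 scale (SE 0.12, adjusted p = 0.0965), and 0.34 without the library labelled WT1 (adjusted p = 0.0489). The other comparisons of Stab1 did not pass, with -0.19 for knockout against wild type after TAC (adjusted p = 0.185). Stab1 overlaps Nt5dc2 on the opposite strand, and counting by strand is not given in the sources used here, so its counts may hold reads of that gene.

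F13a1, the A subunit of clotting factor XIII, a transglutaminase that crosslinks fibrin and matrix, rose with TAC in wild type and was lower in knockout than in wild type after TAC, with the smallest changes of the 3 genes called. Its level was 37.4 and 42.4 CPM in wild type sham, 43.0 in the library labelled WT1 and 50.6 to 65.2 in the other wild type TAC libraries (median of the 6, 54.8). In knockout it was 28.8 and 31.9 CPM after sham and 42.6, 48.7, 40.7 and 36.8 after TAC. TAC libraries lay above sham libraries without overlap in each genotype.

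F13a1 rose with TAC in wild type by 0.45 on the log2 scale (SE 0.14, adjusted p = 0.0432). The change in knockout was of like size, 0.48 (SE 0.15), with an adjusted p of 0.0754, which was 0.0395 without the library labelled WT1. Knockout TAC was lower than wild type TAC by 0.37 (-0.37, SE 0.11, adjusted p = 0.0411), and -0.43 without the library labelled WT1 (adjusted p = 0.0065). After sham the difference was -0.39 (SE 0.17, adjusted p = 0.377), and the interaction was 0.02 (SE 0.20, adjusted p = 0.997). The wild type rise was lost without wild type sham replicate 1 or 2 (adjusted p = 0.324 and 0.208), wild type TAC replicate 3, 4 or 6 (0.0714 to 0.0836), knockout sham replicate 1 or 2 (0.0541 and 0.0543) or knockout TAC replicate 4 (0.0527). The knockout difference after TAC was lost without knockout TAC replicate 4 or 5 (0.112 and 0.143), wild type TAC replicate 3, 4 or 6 (0.0758 to 0.0914) or wild type sham replicate 1 or 2 (0.0527 and 0.0557). A fit of only the compared groups lost both (0.0845 and 0.0713), and limma voom lost the rise (0.0514). F13a1 spans 36867178 to 37050244 of chromosome 13 (minus strand), where 2 antisense genes, Gm49144 and Gm30489, overlap it.

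Cbr2, a carbonyl reductase abundant in resident macrophages, had no comparison past the threshold. Its level was 27.6 and 27.8 CPM in wild type sham, 25.01 in the library labelled WT1, 24.9 to 42.3 in the other wild type TAC libraries (median of the 6, 33.3), 20.2 and 16.9 in knockout sham and 26.7, 31.8, 24.7 and 25.6 in knockout TAC. Both knockout sham libraries lay below every other library. The log2 change with TAC in knockout was 0.55 (SE 0.20, adjusted p = 0.123), and the knockout difference after sham was -0.57 (SE 0.22, adjusted p = 0.340).

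Pf4, the chemokine CXCL4, which platelets store and resident macrophages also make, had 8.06 and 7.56 CPM in wild type sham and 8.56 to 11.7 in wild type TAC (median 10.4), with 10.2 in the library labelled WT1. In knockout it had 6.37 and 7.54 CPM after sham and 7.50, 10.1, 9.19 and 8.91 after TAC. The wild type TAC libraries lay above wild type sham, and the change was 0.40 on the log2 scale (SE 0.14, adjusted p = 0.0802). The change in knockout was 0.36 (SE 0.15, adjusted p = 0.193). Of 8 genes of platelets and megakaryocytes, 2 passed the filter, Gp1bb was at 0 in every library, and the summed level of the 8 was 1.83 to 5.10 CPM with group ranges of 1.83 to 3.11 in wild type sham, 2.31 to 5.10 in wild type TAC, 3.19 to 4.41 in knockout sham and 3.62 to 3.89 in knockout TAC. The part of platelets in the Pf4 and F13a1 levels was not tested.

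Lyve1, a hyaluronan receptor found on resident macrophages beside vessels and on lymphatic endothelium, was near the threshold for knockout against wild type after TAC, and its call there depended on the tool. Its level was 15.1 and 19.6 CPM in wild type sham, 17.5 in the library labelled WT1, 15.5 to 25.8 in the other wild type TAC libraries (median of the 6, 18.6), 12.5 and 11.4 in knockout sham and 15.9, 14.1, 15.1 and 11.2 in knockout TAC. The TAC groups overlapped at wild type TAC replicate 7, the lowest of its group. The knockout difference after TAC was -0.47 (SE 0.14, adjusted p = 0.0514), and -0.50 without the library labelled WT1 (adjusted p = 0.0330). With all libraries it passed in DESeq2 (adjusted p = 0.0235), with no filter on low counts (0.0445) and with RLE size factors (0.0496), and in edgeR it also passed with replicate 1 of knockout TAC left out (0.0387) and with replicate 7 of wild type TAC left out (0.0288). After sham it was -0.53 (SE 0.23, adjusted p = 0.381), and the TAC changes were 0.17 in wild type and 0.24 in knockout. The 6 lymphatic endothelial genes listed summed to 101 to 107 CPM in wild type sham, 71.6 to 101 in wild type TAC, 89.0 to 98.0 in knockout sham and 76.4 to 87.7 in knockout TAC. Of them Prox1, which heart muscle cells also express, was the 1 that passed a test, lower after TAC in wild type (-0.74, adjusted p = 0.0068). Prox1 made up much of the sum of the 6 genes, with a mean of 55.85 of 104.2 CPM in wild type sham. Ccl21a, a chemokine of lymphatic endothelium, has 2 IDs, of which 1 was at 0 in most libraries. The part of lymphatic vessels in the Lyve1 level was not tested.

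Folr2, the beta folate receptor, had 10.9 and 12.2 CPM in wild type sham, 12.8 in the library labelled WT1, 11.7 to 20.5 in the other wild type TAC libraries (median of the 6, 15.6), 12.2 and 14.3 in knockout sham and 11.6, 16.02, 11.7 and 12.9 in knockout TAC. The groups overlapped, and the largest of its changes between groups, 0.46 with TAC in wild type (SE 0.20), did not pass (adjusted p = 0.137). Folr2 is overlapped on the opposite strand by Gm10602 and the pseudogene Gm45319.

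Vsig4, the complement receptor CRIg, and Timd4, the phosphatidylserine receptor TIM-4 that marks long-lived resident macrophages, were near the lower end of what these libraries could measure. Vsig4 had 13 to 55 counts per library, with 0.555 and 1.07 CPM in wild type sham, 0.917 to 2.02 in wild type TAC (median 1.72), 0.719 and 1.47 in knockout sham and 0.707 to 1.36 in knockout TAC. Its change with TAC in wild type was 0.94 with an SE of 0.43 (adjusted p = 0.152). Timd4 had 8 to 43 counts, with 0.341 and 1.02 CPM in wild type sham, 0.240 to 1.70 in wild type TAC (median 0.695), 0.771 and 0.490 in knockout sham and 0.359 to 1.24 in knockout TAC. The SE of its log2 changes was 0.49 to 0.93, so changes of the size seen in Cd163 or Mrc1 were not detectable for Timd4 at this depth.

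**Figure D2:**
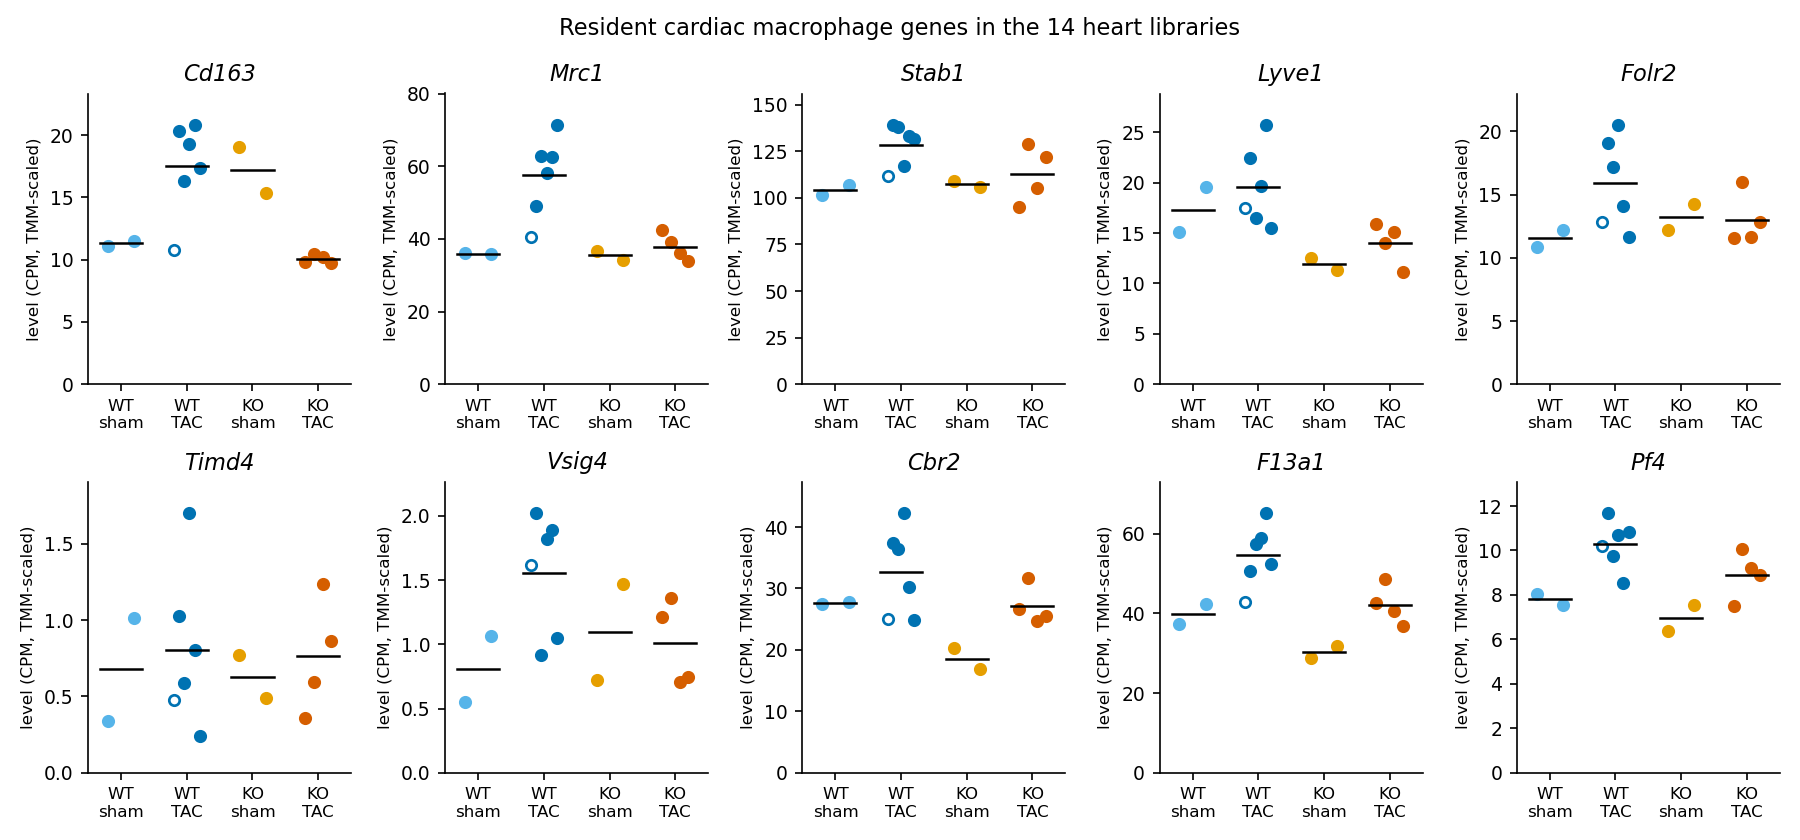
Level of each of the 10 genes in CPM in every library, by group, with lines at the group means and an open circle for the library labelled WT1. In Cd163 the knockout sham libraries (15.4 and 19.0 CPM) sit with wild type TAC, and in Mrc1 they sit with wild type sham (34.2 and 36.8 CPM).

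Per kilobase of exon, which allows levels of different genes to be compared, the order in wild type sham was led by Cbr2 with 20.9 CPM per kb, followed by Pf4 with 10.8 and Stab1 with 10.1. Folr2 had 7.47, Lyve1 5.93, F13a1 5.92 and Mrc1 5.64 CPM per kb, so that the last 3 did not differ beyond the spread of Lyve1 (SD 1.10, n = 2). Cd163 had 2.07, Vsig4 0.546 and Timd4 0.312 CPM per kb. In the plot of levels by library the order within a group was not the same gene after gene. The library labelled WT1 was the lowest of wild type TAC at 4 genes (Cd163, Mrc1, F13a1 and Stab1) and the highest at 0. Wild type TAC replicate 7 was the lowest at 4 others (Lyve1, Timd4, Folr2 and Cbr2) and the highest at Mrc1. Knockout TAC replicate 2 was the highest of its group at 7 of the 10 genes, and replicate 5 was the lowest at 4.

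Counted over the list, TAC in wild type gave 3 of 10 genes higher and 0 lower past the threshold, against 6.36% of all genes tested that were called higher. All 10 log2 changes were above 0, with a median of 0.42 against 0.01 over all 15876 genes. Without the library labelled WT1, 4 genes were called higher (Stab1 added), against 9.25% of all genes. In 4 genes (Mrc1, F13a1, Stab1 and Pf4) all wild type TAC libraries lay above wild type sham, as in 16.3% of all genes, and without the library labelled WT1 Cd163 joined them, against 20.2%.

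In knockout hearts TAC left 1 of 10 genes lower, Cd163, against 1.73% of all genes called lower, and 0 of 10 higher, against 2.36%. At an unadjusted p under 0.05 there were 4 genes, Cd163 lower and Cbr2, F13a1 and Pf4 higher, against 20.8% of all genes. DESeq2 called 2 genes and limma voom 0. With the library labelled WT1 left out, F13a1 was called higher too, with backgrounds of 2.44% lower and 2.87% higher. The knockout TAC libraries lay below both knockout sham libraries in Cd163, as in 17.6% of all genes, and above them in Cbr2 and F13a1, as in 17%. The median log2 change was 0.17, with 7 of 10 above 0, against -0.01 over all genes.

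Between the genotypes after TAC, 3 of 10 genes were lower in knockout, against 5.63% of all genes called lower, and all 10 differences were below 0, with a median of -0.33 against -0.01 over all genes. Without the library labelled WT1 Lyve1 was called too, giving 4 of 10 against 10%. Cd163 alone had every knockout TAC library below every wild type TAC library, as 4.08% of all genes did. Once the library labelled WT1 was left out, Mrc1 and F13a1 did so as well, against 7.56%. The comparisons within and between genotypes share libraries, so their directions are not independent of each other.

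After sham, edgeR called 0 of 10 genes between genotypes, and DESeq2 and limma voom also called 0. At an unadjusted p under 0.05 in edgeR there were 4 (Lyve1, Cd163, Cbr2 and F13a1), against 11.3% of all genes. A fit of only the 4 sham libraries called those 4 genes (adjusted p = 0.0464 for Lyve1, 0.0188 for Cd163, 0.0110 for Cbr2 and 0.0425 for F13a1). Over all genes, the fit of all 14 libraries called 0.126% in either direction, and 0.397% without the library labelled WT1. Those shares do not belong to the fit of only the sham libraries, whose own share is not given here. Over the alternatives other than a library left out, the number of all genes called after sham ran from 13 to 1158, against 20 in the main fit. In this comparison of 2 libraries with 2, Cd163 had both knockout libraries above both of wild type, as 26.6% of all genes did, and Lyve1, Cbr2, F13a1 and Pf4 had both below, as 26.3% did. For the interaction 2 of the 10 (Cd163 and Mrc1) were at an unadjusted p under 0.05 in edgeR, against 4.08% of all genes. After adjustment edgeR called 0 of 10 genes and 0% of all genes for the interaction, while DESeq2 called Cd163 and limma voom called 0. Without the library labelled WT1, edgeR called Cd163 there, against 0.0189% of all genes.

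**Figure D3:**
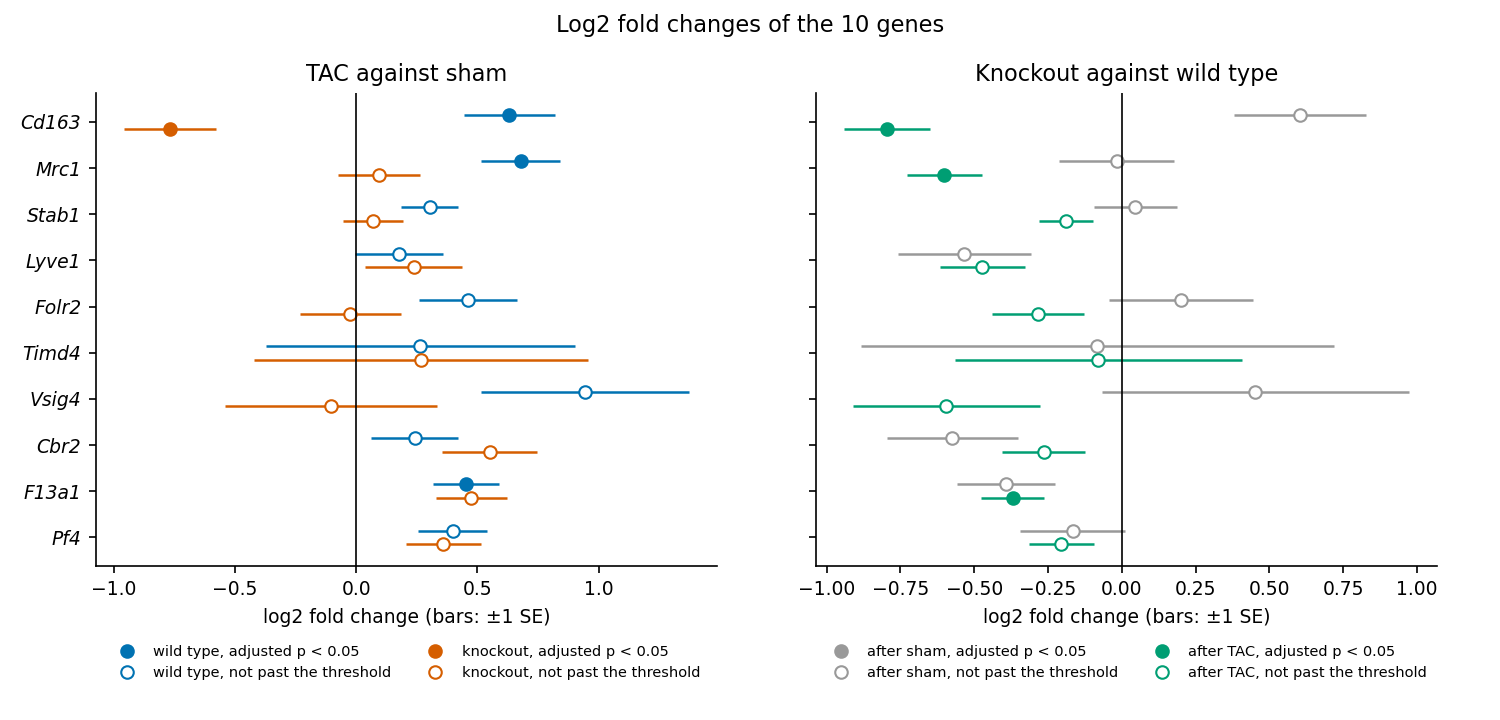
Log2 fold change of each of the 10 genes with all 14 libraries in the fit, for TAC against sham in each genotype (left) and knockout against wild type after each surgery (right); bars are 1 SE either way and filled points passed the threshold. Cd163 is at 0.63 in wild type and -0.77 in knockout on the left, and all 10 genes are above 0 for wild type on the left and below 0 after TAC on the right.

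Summed over the 10 genes the level was 249 to 266 CPM in wild type sham, 274 in the library labelled WT1, 337 to 363 in the other wild type TAC libraries, 240 to 246 in knockout sham and 253 to 301 in knockout TAC. Core macrophage genes, used by macrophages of any origin, summed to 367 to 388, 472 to 801, 349 to 359 and 391 to 540 CPM in the same groups. The 10 genes thus had 0.678 and 0.686 counts per core macrophage count in wild type sham, 0.420 to 0.637 in wild type TAC, 0.686 in both knockout sham libraries and 0.494 to 0.652 in knockout TAC. All TAC libraries had a lower ratio than all sham libraries, and the ranges of the 2 TAC groups overlapped. Stab1, which some endothelial cells also use, gave a large part of the sum (2381 of 5828 counts in wild type sham replicate 1). With Stab1 left out, wild type TAC replicate 2 and knockout TAC replicate 4 no longer lay below both knockout sham libraries. All TAC libraries still lay below both wild type sham libraries.

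**Figure D4:**
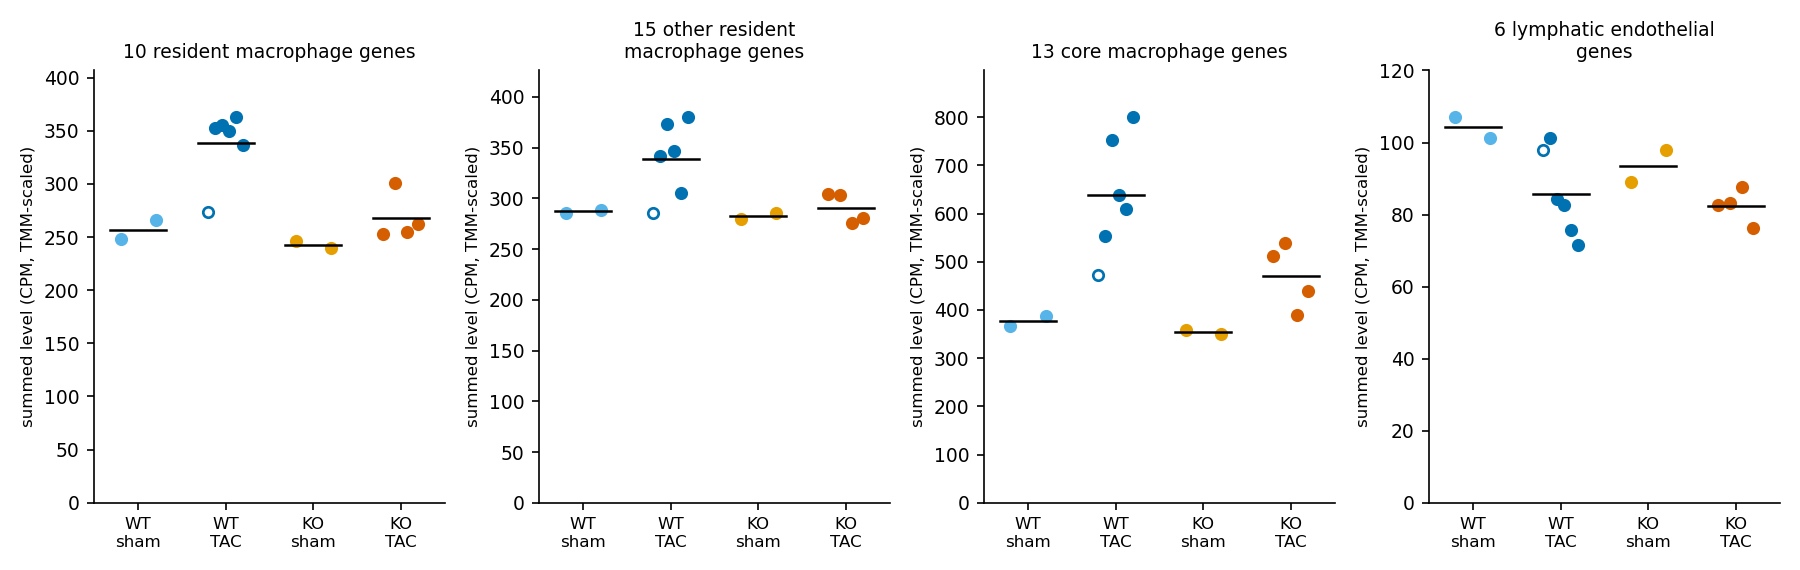
Summed level in CPM of the 10 genes, of 15 other genes of resident macrophages, of 13 core macrophage genes and of 6 lymphatic endothelial genes in every library, with lines at the group means and an open circle for the library labelled WT1. The core genes reach 801 CPM in wild type TAC and stay at 540 CPM or lower in knockout TAC, and the 10 genes reach 363 and 301 CPM.

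Of the 13 core macrophage genes 11 were called higher with TAC in wild type, against 6.36% of all genes. Among them were Cd68 (0.85), C1qa (0.79), Mpeg1 (1.35) and Ctss (1.15), and the median of the 13 was 0.80. In knockout edgeR called 0 of the 13, with a median of 0.50 and 7 at an unadjusted p under 0.05, against 20.8% of all genes. After TAC 4 of 13 were lower in knockout: Adgre1 (-0.71), Csf1r (-0.58), Mpeg1 (-0.83) and C1qa (-0.47). The library labelled WT1 left out, 11, 1 and 7 of the 13 genes passed in these 3 comparisons. The matching shares of all genes were 9.25% called higher, 2.87% called higher and 10% called lower. The 4 core genes called lower between the TAC groups stand against 5.63% of all genes called lower there. The part of macrophage number in the results for Cd163, Mrc1 and F13a1 was not tested.

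Of 15 other genes of resident macrophages 12 passed the filter. The chemokine gene Ccl8 (1.97, adjusted p = 0.0113) and Fcrls (0.91, adjusted p = 0.0324) rose with TAC in wild type, and the list's median was 0.28. Of all genes, 6.36% were called higher there. In knockout the iron exporter gene Slc40a1 fell with TAC (-0.87, adjusted p = 0.0336), and between genotypes after TAC Ccl24 itself was the 1 gene called. The shares of all genes called lower in these 2 comparisons were 1.73% and 5.63%. The library labelled WT1 left out, 3 genes of the list were called in wild type and 2 between genotypes after TAC. The shares of all genes were then 9.25% called higher and 10% called lower. Slc40a1 was at 14.5 and 15.8 CPM in wild type sham, 7.91 to 16.4 in wild type TAC, 19.9 and 22.5 in knockout sham and 9.84 to 14.6 in knockout TAC. It handles iron downstream of the haemoglobin that Cd163 takes up. Among the 6 haem and iron genes listed, the ferritin gene Ftl1 was the 1 called higher with TAC in wild type (0.44, adjusted p = 0.0368). The haptoglobin gene Hp, whose product binds haemoglobin, was lower in knockout than in wild type after TAC (-1.67, SE 0.32, adjusted p = 0.0091). After sham its difference was -1.39 (SE 0.48, adjusted p = 0.300), with 5.12 and 9.21 CPM in wild type and 2.50 and 2.98 in knockout, while Cd163 was the higher in knockout there.

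Among 12 genes of monocytes and recruited macrophages 10 passed the filter. Their sum was 148 CPM in wild type TAC replicate 7 and 38.3 to 58.5 in the other wild type TAC libraries. It was 20.4 and 45.0 CPM in wild type sham, 33.1 and 43.5 in knockout sham and 23.9 to 53.3 in knockout TAC. Trem2 (1.14) and Lgals3 (1.34) rose with TAC in wild type, and Hp and Gpnmb (-1.51) were lower in knockout after TAC. The shares of all genes were 6.36% called higher in the first comparison and 5.63% called lower in the second. After sham the mean of Gpnmb was also lower in knockout, at 0.902 CPM against 2.57 in wild type. In wild type TAC, Gpnmb was at 0.810 CPM in the library labelled WT1 and at 2.27 to 5.18 in the others. For Hp, the mean of wild type TAC was 6.83 CPM with the library labelled WT1 and 6.81 without it. The Hp range there was 4.23 to 8.96 CPM either way, against 0.795 to 2.97 in knockout TAC. Of the 5 MHC class II genes, which antigen-presenting cells use, edgeR called 0 in each of the 5 comparisons, with 0 or 1 at an unadjusted p under 0.05. Of the growth factors and regulators, Csf1, whose protein macrophages need to survive, fell with TAC in wild type (-0.54, adjusted p = 0.0052), from 81.0 and 87.6 CPM to 54.4 to 64.4, while its receptor gene Csf1r rose (0.64, adjusted p = 0.0421).

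Between the TAC groups genes of blood endothelium and of heart muscle cells lay the other way from the 10 genes. Of the 6 lymphatic endothelial genes 4 were below 0 there, as the 10 genes were, and 2 were above (median -0.13). All 7 blood endothelial genes were above 0 for knockout against wild type after TAC (median 0.26), with Egfl7 the 1 called (0.69, adjusted p = 0.0239). Their summed level was 951 to 966 CPM in wild type sham, 681.5 to 1166 in wild type TAC (to 1002 without the library labelled WT1), 1011 to 1230 in knockout sham and 970.3 to 1222 in knockout TAC. All 6 genes of heart muscle cells were above 0 after TAC as well (median 0.11), with the troponin gene Tnni3 called (0.49, adjusted p = 0.0462). After sham 6 of the 7 blood endothelial genes and 4 of the 6 heart muscle genes were above 0 (medians 0.26 and 0.13). Their part in the results for the 10 genes, Stab1 among them, was not tested.

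By the root mean square difference of log2(CPM + 0.5), centred over the 14 libraries, the genes whose pattern was most like the mean of the 10 were Lrrk1 (0.114), Cnp (0.120), Arrb1 (0.126), Ppp1r21 (0.129) and Rab3d (0.130), of 15866 compared. Among the 10 genes themselves the difference from that mean was lowest for Folr2 (0.159) and Stab1 (0.162), and highest for Cd163 (0.303) and Timd4 (0.376). Of the 15866 other genes, 101 lay closer to that mean than Folr2 and 119 closer than Stab1. Closer than Cd163 lay 6551 of them, and closer than Timd4 10177. Lrrk1, the nearest gene, was at 25.5 ± 0.549 CPM after sham (SD, n = 2) and 31.4 ± 3.27 after TAC (n = 6) in wild type, and at 23.0 ± 0.249 after sham (n = 2) and 25.1 ± 1.42 after TAC (n = 4) in knockout. The measure has no test.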

How the data were processed

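RNA of mouse ventricle was sequenced in 14 libraries. The authors deposited raw counts per gene as whole numbers, and each library was taken as 1 mouse because the numbers per group equal those in the design text. Per the submitters' processing notes, FastQC, HISAT2 2.1.0, featureCounts and edgeR were used with GRCm38, while the sources used here do not give their settings or the use of strand. Coordinates are from GENCODE M21.

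Genes were filtered with filterByExpr and scaled with TMM factors in edgeR 4.0.16 (R 4.3.3). All libraries entered 1 model with a mean for each of the 4 groups (glmQLFit, robust), and 5 comparisons were tested with the quasi-likelihood F test, adjusted with the Benjamini-Hochberg method over 15876 genes, with a threshold of 0.05. SE is the log2 change over the square root of F. Library pairs of a group differed by more than sampling noise (chi-square per degree of freedom 4.55 to 176). Alternatives were other scaling and filters, DESeq2 1.42.0, limma 3.58.1 (voom), fewer groups, a replicate block and each library left out. The fit was tested on simulated counts.

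The 10 genes and the lists beside them were chosen with earlier results of these data known. The text names all 10 genes in every comparison, up to 4 genes of a list with the smallest p, Ccl24, and the 5 genes most like the mean pattern. Gp1bb and Ccl21a are further named for their values, as are genes in the closing section. A result for 1 further gene is not reported here.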

Additional observations from a re-analysis of the deposited data

Results flagged for a closer look

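The difference between the TAC responses of Cd163 in the 2 genotypes passed the test once the library labelled WT1 (wild type TAC replicate 1) was left out. The interaction was then -1.50 on the log2 scale (edgeR, adjusted p = 0.00204): Cd163 was higher after TAC in all 5 wild type libraries left and lower after TAC in all 4 knockout libraries, each against both sham libraries of its genotype. Among 20 groups of libraries checked over the 10 genes, 0 had a library far enough from the others to be named.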

How the results depend on the processing

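Each alternative changed 1 choice. Over the 10 genes and 5 comparisons, 977 values kept direction and side of the threshold, 48 lost the call, 17 gained it and 46 changed direction, none of these a called value. The number of the 10 genes called in wild type TAC against sham was 3, and 1 with limma voom and 0 with only the compared groups fitted. In knockout TAC against sham it was 1, and 2 with DESeq2, 0 with limma voom and 3 with only the compared groups. With only the compared groups, 4 were called after sham, and DESeq2 called 1 for the interaction. The counts with 1 library left out ran from 0 to 4, 0 to 2, 1 to 4, 0 to 0 and 0 to 1 for TAC in wild type, TAC in knockout, knockout against wild type after TAC, the same after sham, and the interaction. Replicate numbers did not pair the libraries (correlations of deviations -0.215 to 0.0603), and with the replicate block 0 genes were called in TAC in wild type, TAC in knockout and between genotypes after TAC. With that block the wild type rise was 0.50 for Cd163, 0.41 for Mrc1 and 0.31 for F13a1 (adjusted p = 0.331, 0.212 and 0.260), the knockout difference after TAC was -0.71, -0.32 and -0.20 (0.222, 0.382 and 0.513), and the fall of Cd163 in knockout was -0.82 (0.0980). Over all genes the counts called were 1930, 648, 1483, 20 and 0 in the same order, with 1 library left out 0 to 2756, 1 to 1361, 302 to 2939, 3 to 79 and 0 to 3, and under the other settings 22 to 2760, 367 to 1458, 45 to 2311, 13 to 1158 and 0 to 7. The lowest counts, 4 and 0 for TAC in wild type and 1 for TAC in knockout, came without a sham library.

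The values that changed direction were small or had few counts. With limma voom Timd4 was 0.066 between genotypes after TAC, 0.104 after sham and -0.038 for the interaction. With the replicate block it was -0.43 for TAC in knockout, 0.036 after sham and -0.60 for the interaction, and Vsig4 was 0.14 for TAC in knockout. Folr2 was 0.00406 for TAC in knockout with only the compared groups. With 1 library left out, TAC in wild type ran from -0.000839 to 0.38 for Lyve1 and -0.33 to 1.22 for Timd4. TAC in knockout ran from -0.076 to 0.63 for Timd4, -0.14 to 0.092 for Folr2 and -0.52 to 0.499 for Vsig4. Knockout against wild type after TAC ran from -0.43 to 0.29 for Timd4, and after sham from -0.69 to 0.87 for Timd4, -0.078 to 0.031 for Mrc1 and -0.157 to 0.978 for Vsig4. The interaction ran from -0.14 to 0.24 for Lyve1, -0.953 to 0.601 for Timd4, -0.070 to 0.11 for F13a1 and -0.155 to 0.084 for Pf4. The cause was not tested. Vsig4 and Timd4 are limited by counts of 8 to 55 per library, and the sham groups by 2 libraries each.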

Other observations

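Genes whose levels over the 14 libraries were like those of Cd163 were looked up after its values had been seen. Among the nearest were Cited2 (root mean square difference of the centred log2 levels 0.216), Mylip (0.219), Slc7a2 (0.225) and Thsd7a (0.228), of 15875 compared. Cited2, a transcriptional co-regulator, was at 23.7 ± 1.36 CPM after sham (SD, n = 2) and 29.4 ± 5.12 after TAC (n = 6) in wild type, and at 31.6 ± 1.85 after sham (n = 2) and 20.4 ± 3.68 after TAC (n = 4) in knockout. Slc7a2, a transporter of arginine and other cationic amino acids, was at 4.13 ± 0.608, 4.87 ± 1.11, 4.999 ± 0.560 and 2.69 ± 0.604 CPM in the same order. Mylip, the ligase that targets the LDL receptor for degradation, was at 17.6 ± 0.206, 19.9 ± 3.34, 17.3 ± 0.194 and 12.6 ± 0.386 CPM.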
